A study of Mus musculus with 48 samples.

Results

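The 10 genes described here mark astrocytes of the mouse brain or serve their uptake of glutamate, their gap junctions and their water channel. They were chosen by symbol, as *Gfap*, *Aqp4*, *Aldh1l1*, *Slc1a2*, *Slc1a3*, *Glul*, *Gja1*, *Gjb6*, *S100b* and *Sox9*, and all 10 were found in both expression tables of the study, among the 16952 genes that the tables share. RNA of the cerebral cortex was sequenced from 48 mice in 12 groups of 4, formed by sex, exposure and genotype. The wild type was C57BL/6J (B6), and the other genotypes were *APOE*3 and *APOE*4, B6 mice whose *Apoe* gene was replaced by a human allele (targeted replacement, *APOE*-TR). Mice inhaled filtered air, as controls, or air with nPM, which is nano-scale particulate matter collected from city air, in sessions of 5 hr, held on 3 days of each week. B6 mice, aged 4 months by the labels, were exposed for 8 weeks, and *APOE*-TR mice, aged 6 months, for 15 weeks. Controls of the *APOE*-TR groups carried the same human allele as the exposed mice, so no comparison within those tables had mouse *Apoe*. The exposures of B6 and of *APOE*-TR mice were run apart and their tables made apart, so that levels were not tested between them. Whole cortex of perfused mice was used, so each value is a mixture of all its cells, and the p-values measure the spread between mice of a group.

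Astrocytes clear glutamate that neurons release, which keeps synaptic signals short and limits excitotoxicity. The transporters encoded by *Slc1a2* (GLT-1) and *Slc1a3* (GLAST) take it up, and glutamine synthetase, encoded by *Glul*, turns it into glutamine that returns to neurons. Astrocytes are coupled into a network through gap junctions of connexin 43 (*Gja1*) and connexin 30 (*Gjb6*), and their endfeet on blood vessels carry the water channel aquaporin-4 (*Aqp4*). *Gfap* encodes an intermediate filament that rises in reactive astrocytes, *Aldh1l1* a folate enzyme used as a marker of the cell type, *S100b* a calcium-binding protein, and *Sox9* a transcription factor of the astrocyte lineage. Astrocytes are also the main source of apolipoprotein E in the brain.

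Values are CPM (counts per 1000000 reads) rescaled between mice by TMM, and 58 to 128924 estimated reads stood behind single values of the 10 genes. Depth, in units of 1000000 estimated reads, was 17.8 to 22.3 in *APOE*-TR females, 22.4 to 31.3 in *APOE*-TR males, 4.83 to 24.4 in B6 females and 2.08 to 17.2 in B6 males, as far as the lowest value of each column stands for no read, which is less certain in the B6 table. A pair of libraries, *APOE*3 female controls 61 and 6, stood apart. When each gene's log2 level, taken against the mean of its table, was regressed on log2 transcript length, the slope was −0.54 and −0.40 there and −0.22 to 0.028 in the other 14 *APOE*-TR females. Listed mitochondrial genes held 21.8% and 18.3% of their values against 7.67% to 14.9%. Some of the allele, nPM and sex results of the 10 genes to which they contribute are also given without both libraries. Where this is not said, the values include them. *APOE*4 female control 21 had the highest *Gfap* of all mice of its table. Control 6 is a column whose animal number matches no sample title, and it was used by the sex, genotype and exposure in its name. Neuronal, oligodendrocyte and microglial markers were detected in every mouse.

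Per kilobase of the longest annotated transcript, *Glul* and the glutamate transporters were the highest of the 10 genes in both tables. In the 32 *APOE*-TR mice the mean levels were 448 ± 96.9 CPM per kb for *Glul*, 218 ± 27.8 for *Slc1a2*, 112 ± 15.1 for *Slc1a3*, 96.8 ± 46.1 for *S100b*, 42.6 ± 6.95 for *Gja1* and 36.1 ± 28.4 for *Gfap* (mean ± SD). Lower levels were found for *Gjb6*, at 20.8 ± 5.90, *Aqp4*, at 18.5 ± 5.71, *Aldh1l1*, at 6.77 ± 0.634, and *Sox9*, at 3.98 ± 0.814 CPM per kb. Most steps of that order held mouse by mouse. *Glul* was above *Slc1a2* in 32 of 32 mice and *Slc1a2* above *Slc1a3* in 31 of 32, whereas *Gjb6* was above *Aqp4* in 19 of 32 only. In the 16 B6 mice *Glul* led at 412 ± 48.1 CPM per kb, and *Slc1a2* followed at 136 ± 59.1 with a range of 36.5 to 214, above *Slc1a3* in 11 of 16 mice. Length was taken from the annotation rather than from the transcripts expressed, so close neighbours in the order are uncertain.

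The genes differed in how much mice of one group varied. *APOE*-TR males had the lowest spread of the 4 pools by strain and sex for 8 of the 10 genes, all but *Glul* and *Aldh1l1*. The pooled SD within their groups, on the log2 scale, was 0.057 for *Slc1a2*, 0.068 for *Slc1a3* and 0.084 for *S100b*, and the highest value was 0.23, for *Gfap*. In *APOE*-TR females it was 0.76 for *Gfap*, 0.36 for *Gjb6* and 0.36 for *S100b*. B6 males were the least uniform for the filament and the transporter genes, at 0.86 for *Gfap*, 0.75 for *Slc1a2* and 0.49 for *Slc1a3*, and *Glul* varied little there, at 0.14, against 0.16 in *APOE*-TR males.

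The group means (± SD, 4 mice each) spanned different ranges by gene. For the glutamate genes, *Slc1a2* ran from 2122 ± 689 CPM in *APOE*3 female controls to 2778 ± 111 CPM in *APOE*3 male controls, and among B6 groups from 911 ± 494 CPM in B6 male controls to 2379.6 ± 96.5 CPM in B6 female controls. *Slc1a3* ran from 459.9 ± 21.1 CPM in *APOE*4 females exposed to nPM to 629 ± 65.2 CPM in *APOE*3 female controls, and among B6 groups from 386 ± 77.2 CPM in B6 males exposed to nPM to 550.5 ± 49.8 CPM in B6 female controls. *Glul* ran from 1037 ± 156 CPM in *APOE*4 males exposed to nPM to 1713 ± 162 CPM in *APOE*3 female controls, and among B6 groups from 1037 ± 65.6 CPM in B6 females exposed to nPM to 1245 ± 169 CPM in B6 female controls. *APOE*3 female controls thus held the highest mean of *Slc1a3* and *Glul* and the lowest of *Slc1a2* among *APOE*-TR groups. For the connexins and the water channel, *Gja1* ran from 149 ± 7.19 CPM in *APOE*4 males exposed to nPM to 219 ± 19.0 CPM in *APOE*3 female controls, and among B6 groups from 152 ± 17.3 CPM in B6 males exposed to nPM to 169.7 ± 53.4 CPM in B6 male controls. *Gjb6* ran from 37.0 ± 3.17 CPM in *APOE*3 male controls to 62.2 ± 19.8 CPM in *APOE*3 female controls, and among B6 groups from 19.5 ± 7.22 CPM in B6 males exposed to nPM to 30.8 ± 5.18 CPM in B6 female controls. *Aqp4* ran from 72.2 ± 7.37 CPM in *APOE*4 male controls to 156 ± 32.8 CPM in *APOE*3 female controls, and among B6 groups from 64.2 ± 30.2 CPM in B6 male controls to 117 ± 17.0 CPM in B6 female controls. All 3 had their highest *APOE*-TR mean in *APOE*3 female controls, the group that holds mice 61 and 6.

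Among the identity genes, *Gfap* ran from 61.5 ± 5.45 CPM in *APOE*4 males exposed to nPM to 176 ± 192 CPM in *APOE*4 female controls, and among B6 groups from 50.9 ± 10.9 CPM in B6 female controls to 88.3 ± 38.6 CPM in B6 male controls. *S100b* ran from 101 ± 4.16 CPM in *APOE*4 males exposed to nPM to 284 ± 108 CPM in *APOE*3 female controls, and among B6 groups from 118 ± 26.8 CPM in B6 females exposed to nPM to 147 ± 21.8 CPM in B6 male controls. The ratio of the highest to the lowest mean was larger for *Gfap* and *S100b* than for the other 8 genes among *APOE*-TR groups. *Sox9* ran from 12.7 ± 1.68 CPM in *APOE*4 males exposed to nPM to 19.5 ± 0.595 CPM in *APOE*4 females exposed to nPM, and among B6 groups from 12.3 ± 2.76 CPM in B6 female controls to 13.7 ± 8.28 CPM in B6 males exposed to nPM. *Aldh1l1* ran from 26.2 ± 1.55 CPM in *APOE*4 females exposed to nPM to 30.2 ± 2.33 CPM in *APOE*3 females exposed to nPM, and among B6 groups from 19.6 ± 6.65 CPM in B6 male controls to 23.1 ± 2.93 CPM in B6 female controls. That ratio was smallest for *Aldh1l1*.

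**Figure D1:**
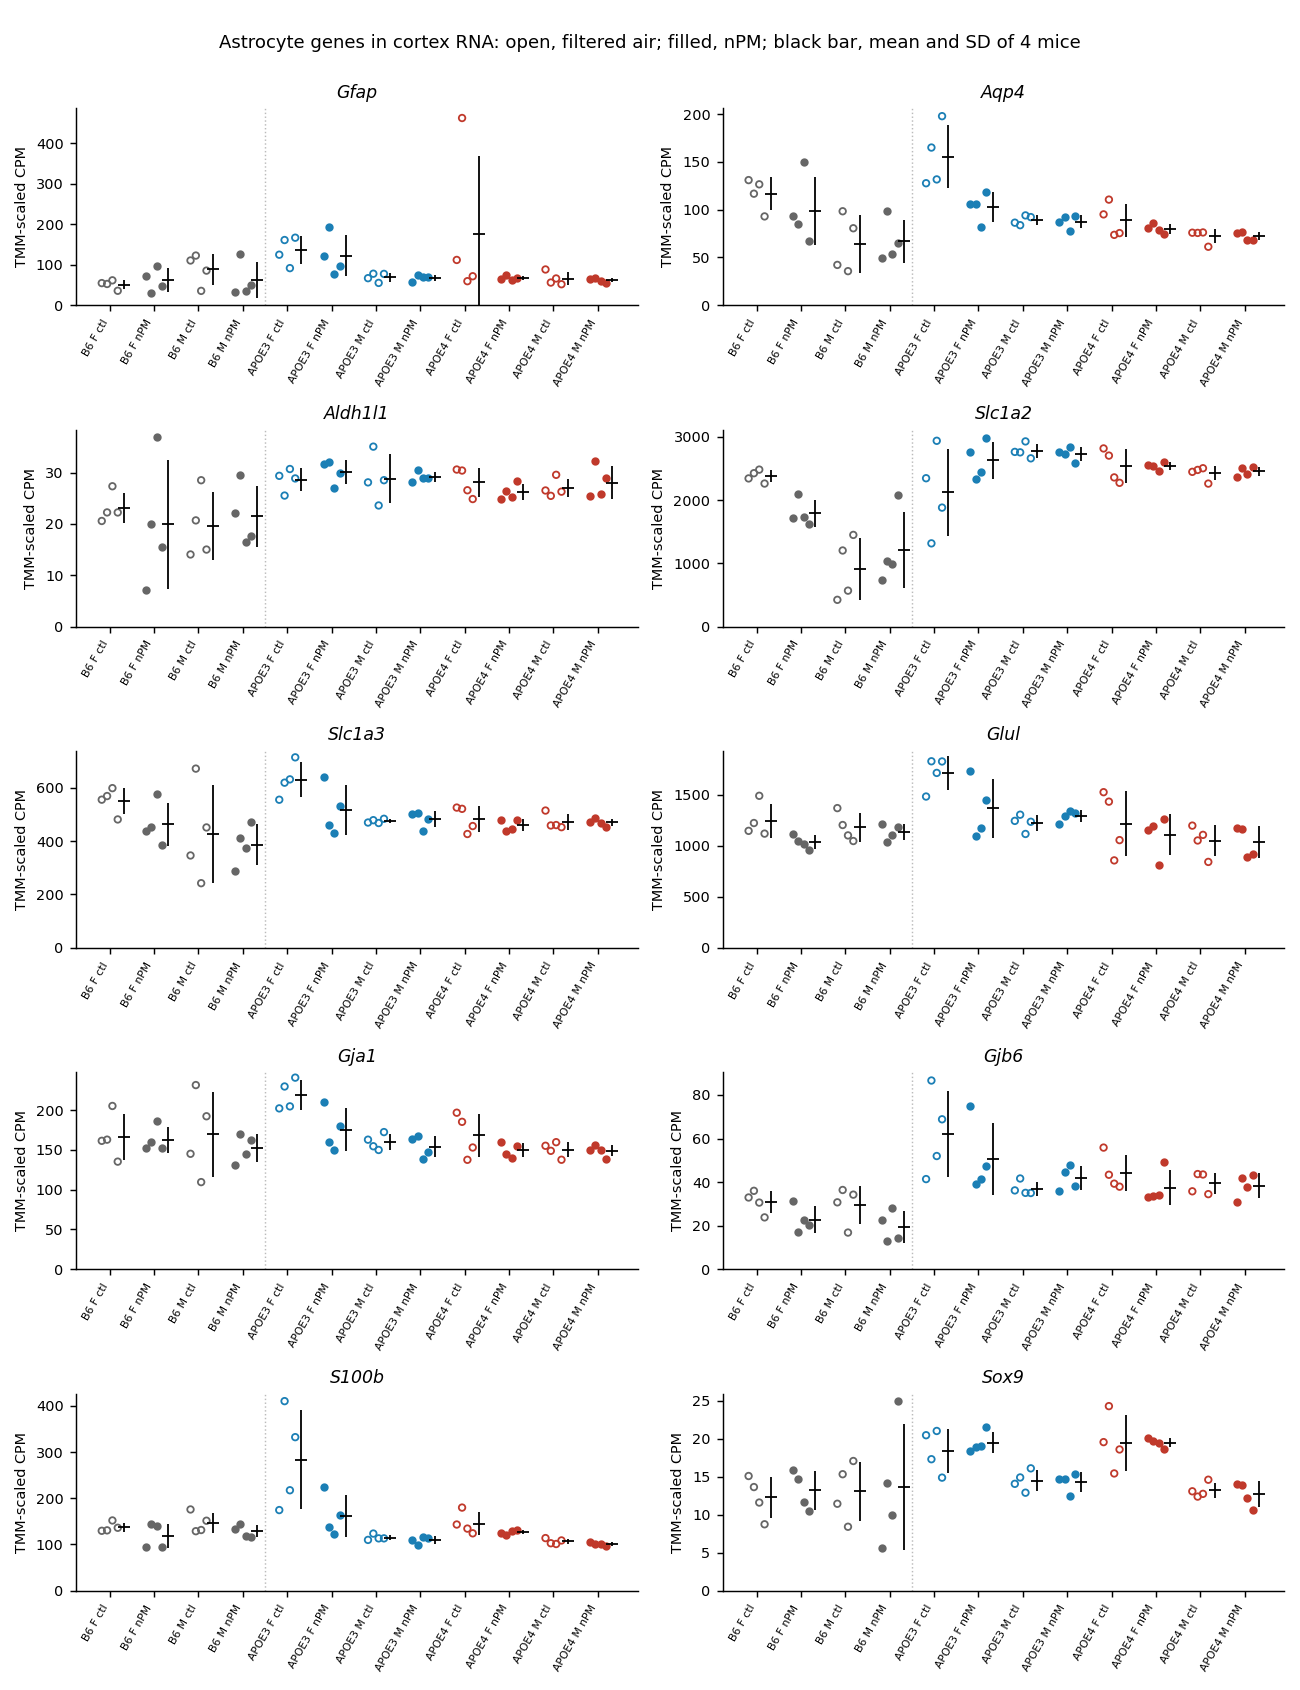
Level of each of the 10 genes in each mouse (TMM-scaled CPM, each axis from 0) in the 12 groups, with open points for filtered air, filled points for nPM, and a black mark with a bar for the mean and SD of 4 mice. B6 groups stand left of the dotted line because they come from a separate table. Among *APOE*-TR groups *Aqp4*, *S100b* and *Glul* are highest in *APOE*3 female controls, among B6 groups *Slc1a2* is lowest in male controls, and 1 *APOE*4 female control has *Gfap* of 462 CPM, so that the lower end of that group's SD bar lies below 0 and is cut.

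*Glul* was lower in *APOE*4 than in *APOE*3 cortex, and *Aqp4* was lower as well where the *APOE*-TR mice were fitted alone. The question of this comparison was the difference between the alleles over both sexes and exposures. It pools exposed mice with controls, so it is not a baseline difference of non-exposed mice alone. In the fit of 48 mice with terms for sex, genotype and nPM, all 10 genes had lower estimates in *APOE*4, with a median log2 difference of −0.20 against 0.011 over all genes tested. The 10 were listed for their known roles, and they are not independent of each other, so the shared direction carries no p. At 5% FDR 1 of the 10 passed the test, *Glul* (log2 difference −0.35, that is lower by 21.4%; standard error 0.080; limma adjusted p = 0.0245), beside 0.379% of all genes tested. *Aqp4* had the larger estimate (log2 difference −0.43, standard error 0.12, limma p = 5.68e-04 with n = 48 mice, limma adjusted p = 0.107). In bulk tissue, fewer astrocytes and less RNA per astrocyte cannot be told apart.

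Without *APOE*3 female controls 61 and 6 none of the 10 passed in that fit, with *Glul* at −0.30 (limma adjusted p = 0.124). With the length slope of each library as a covariate *Glul* was at −0.28 (adjusted p = 0.0652). B6 mice carry no human allele and entered the fit through its spread and its terms for sex and nPM. In the fit of the 32 *APOE*-TR mice alone the estimates were the same and 4 of the 10 genes passed, beside 5.94% of all genes tested. They were *Aqp4* (adjusted p = 6.02e-04 from limma), *Glul* (adjusted p = 0.0121), *S100b* (log2 difference −0.36, adjusted p = 0.0436) and *Gja1* (log2 difference −0.18, adjusted p = 0.0482). Without *APOE*3 female controls 61 and 6, in *APOE*-TR mice alone *Aqp4* had a log2 difference of −0.35 (limma adjusted p = 1.93e-04), *Glul* of −0.30 (adjusted p = 0.0268) and *S100b* of −0.22 (adjusted p = 0.0438), while *Gja1* no longer passed (adjusted p = 0.104). With the length slope of each library as a covariate, 1 of the 10 passed among *APOE*-TR mice, *Aqp4*, at −0.31 (limma adjusted p = 0.00141), with *Glul* at −0.25 (adjusted p = 0.0721).

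*Aqp4*, the water channel of the endfeet, had a lower mean in *APOE*4 in each of the 4 comparisons of one sex and exposure. In males in filtered air it was 83.7, 86.4, 92.2 and 94.0 CPM in the *APOE*3 mice and 61.2, 75.7, 75.9 and 76.2 CPM in the *APOE*4 mice. In males exposed to nPM it was 77.7, 86.6, 91.8 and 93.6 CPM in *APOE*3 and 68.4, 68.5, 75.8 and 76.5 CPM in *APOE*4. The alleles did not overlap in males, in filtered air (log2 difference −0.31, exact permutation p = 0.0286, limma adjusted p = 0.222) or under nPM (−0.27, exact permutation p = 0.0286, limma adjusted p = 0.141). Female controls had 128, 132, 165 and 198 CPM in *APOE*3, the highest values of the gene in the table, and 73.6, 75.5, 95.1 and 111 CPM in *APOE*4. Females exposed to nPM had 81.5, 106, 106 and 119 CPM in *APOE*3 and 74.2, 78.9, 80.4 and 86.3 CPM in *APOE*4. The alleles did not overlap in female controls (−0.80, exact permutation p = 0.0286, limma adjusted p = 0.0765) and overlapped under nPM (−0.35, exact permutation p = 0.0571, limma adjusted p = 0.475). In female controls without mice 61 and 6 the difference was −0.57 (limma adjusted p = 0.0801).

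*Glul* (chromosome 1 from 153899929 to 153909724 in mm10), the gene of glutamine synthetase, likewise had a lower mean in *APOE*4 in all 4 comparisons. In males in filtered air it was 1117, 1236, 1245 and 1305 CPM in *APOE*3 and 843, 1053, 1108 and 1198 CPM in *APOE*4, which overlapped. In males exposed to nPM it was 1218, 1289.9, 1318 and 1346 CPM in *APOE*3 and 887, 916, 1166 and 1177 CPM in *APOE*4, which did not. The log2 differences were −0.23 in control males (exact permutation p = 0.0571) and −0.33 in exposed males (exact permutation p = 0.0286, limma adjusted p = 0.28). Female controls had 1483, 1715, 1827 and 1829 CPM in *APOE*3 and 857, 1056, 1433 and 1526 CPM in *APOE*4. Exposed females had 1100.5, 1178, 1452 and 1738 CPM in *APOE*3 and 815, 1154, 1198 and 1267 CPM in *APOE*4. Both female comparisons overlapped, with log2 differences of −0.53 (exact permutation p = 0.0571) in filtered air and −0.30 (exact permutation p = 0.257) under nPM. Without mice 61 and 6 the difference in female controls was −0.43 (limma adjusted p = 0.277).

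At 5% FDR none of the 10 genes passed in any of these 4 comparisons, in which limma called 0.231% of all genes for female controls, 0.433% for male controls, 0.145% for exposed females and 0.475% for exposed males. At an unadjusted p under 0.05 the counts were 5, 3, 3 and 3 of the 10 genes in the same order, beside 41.1%, 5.81%, 9.11% and 9.84% of all genes. DESeq2 on recovered reads called 4 of the 10 in female controls, 1 in male controls, 0 in exposed females and 3 in exposed males, beside 26.03%, 0.836%, 0.697% and 1.24% of all genes, and edgeR called 0 of the 10 in each. Single mice also decided calls. Without *APOE*3 control 52 limma called 5 of the 10 in female controls, *Aqp4*, *S100b*, *Slc1a3*, *Gjb6* and *Gja1*, beside 38.9% of all genes, and without exposed *APOE*3 mouse 58 it called *Aqp4* in exposed males (−0.33, adjusted p = 0.0386) beside 0.426% of all genes. The 4-against-4 permutation test cannot go below p = 0.0286, which *Aqp4* reached in 3 of the 4 comparisons (exact, two-sided). The share of all genes whose groups did not overlap was not counted in any comparison of the allele or of nPM.

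**Figure D2:**
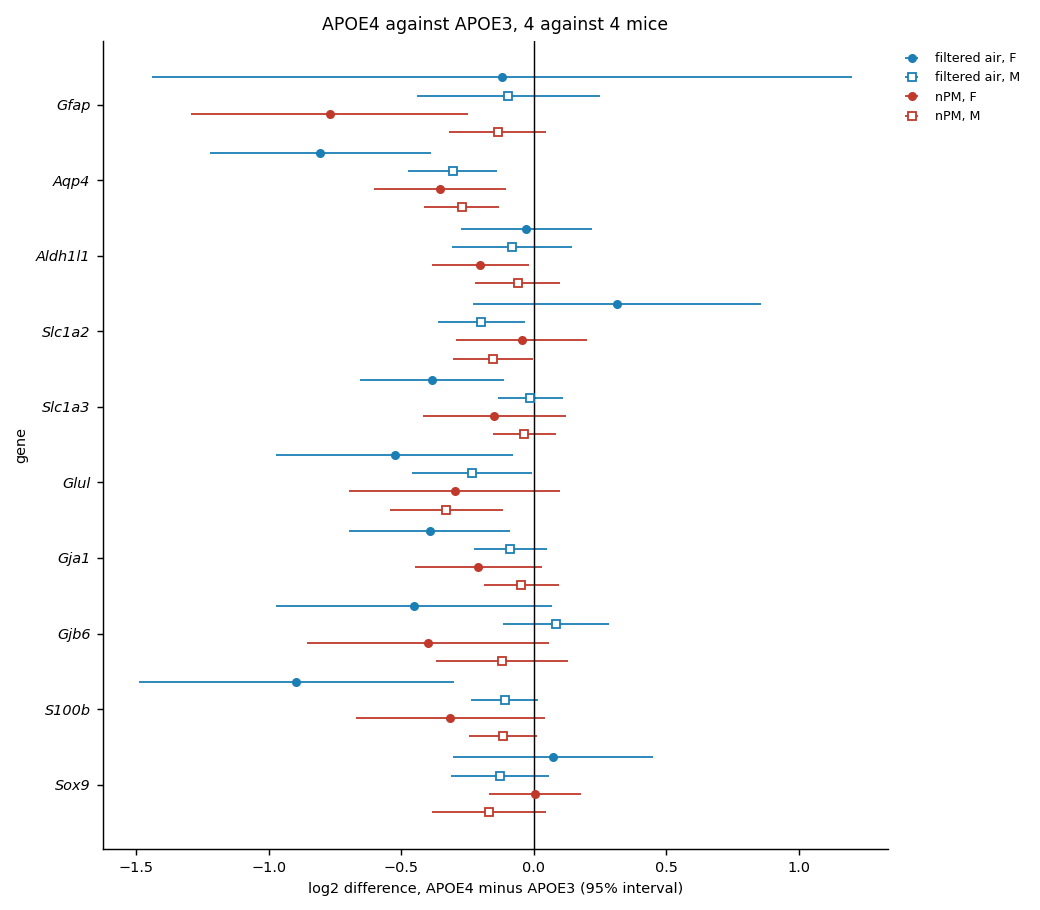
Log2 difference between *APOE*4 and *APOE*3 for the 10 genes, with 95% intervals from limma, in females (circles) and males (squares) kept in filtered air (blue) or exposed to nPM (red), 4 against 4 mice each. The 4 estimates of *Aqp4* lie between −0.80 and −0.27 with intervals below 0, and control females have the widest intervals for *Gfap* and *S100b*.

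The glutamate transporters did not share one pattern. *Slc1a2* (chromosome 2 from 102658683 to 102790785) was 2662, 2757, 2764 and 2930.3 CPM in *APOE*3 control males and 2262, 2448, 2479 and 2506 CPM in *APOE*4 control males. Under nPM the values in males were 2593, 2726, 2765 and 2847 CPM in *APOE*3 and 2369, 2417, 2509.6 and 2529.9 CPM in *APOE*4. In both pairs every *APOE*4 male was below every *APOE*3 male, by log2 differences of −0.20 (exact permutation p = 0.0286, limma adjusted p = 0.681) and −0.15 (exact permutation p = 0.0286, limma adjusted p = 0.505). In females the estimates were 0.31 in filtered air and −0.045 under nPM (exact permutation p = 0.343 and 0.629), the first of them resting on *APOE*3 controls at 1316, 1882, 2347 and 2940.0 CPM, in which mice 61 and 6 were the lowest. Without these it was −0.054.

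*Slc1a3* (chromosome 15 from 8634124 to 8710808) was 555, 618, 631 and 713 CPM in *APOE*3 female controls and 426, 456, 520.5 and 525 CPM in *APOE*4 female controls, with no overlap (log2 difference −0.38, standard error 0.12, exact permutation p = 0.0286, limma adjusted p = 0.0767). Without mice 61 and 6 the difference was −0.30 (limma adjusted p = 0.148). In males *Slc1a3* had estimates near 0, −0.013 in filtered air and −0.036 under nPM, with 95% intervals of −0.14 to 0.11 and −0.16 to 0.083.

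For the connexins, *Gja1* (chromosome 10 from 56377300 to 56390420) in female controls was 202, 205, 229.8 and 241 CPM in *APOE*3 and 138, 153, 185 and 197 CPM in *APOE*4, with no overlap (log2 difference −0.39, standard error 0.13, exact permutation p = 0.0286, limma adjusted p = 0.0797). Without mice 61 and 6 it differed by −0.29 (limma adjusted p = 0.23). The other 3 estimates of *Gja1* lay between −0.21 and −0.047 and had exact permutation p from 0.114 to 0.571. *Gjb6* (chromosome 14 from 57123301 to 57133612) had estimates of −0.45 and −0.40 in females and of 0.084 and −0.12 in males, with exact permutation p from 0.171 to 0.429, and its groups overlapped in all 4 comparisons. Over 12 alternative fits its estimate in female controls ran from −0.52 to 0.12.

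*S100b* (chromosome 10 from 76253836 to 76261320) was 175, 217, 332 and 411 CPM in *APOE*3 female controls and 124, 134, 143 and 179.9 CPM in *APOE*4 female controls. The highest values belonged to mice 61, at 411 CPM, and 6, at 332 CPM, and the groups overlapped through *APOE*3 control 52. The log2 difference was −0.90 (exact permutation p = 0.0571, limma adjusted p = 0.0765) with them and −0.43 (limma adjusted p = 0.121) without. In the other 3 comparisons it was between −0.32 and −0.11, with exact permutation p from 0.114 to 0.143. *S100b* has the shortest annotated transcript of the 10 genes, 1484 bases, and *Slc1a2* the longest, 11595 bases.

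Of the other identity genes, *Gfap* (chromosome 11 from 102887336 to 102897201) was lower in *APOE*4 under nPM in females, where the *APOE*3 mice had 76.6, 95.8, 122 and 193 CPM and the *APOE*4 mice 61.7, 64.8, 66.9 and 75.4 CPM. Every *APOE*4 mouse was below every *APOE*3 mouse (log2 difference −0.77, standard error 0.23, exact permutation p = 0.0286, limma adjusted p = 0.457). The other 3 estimates of *Gfap* were between −0.14 and −0.097, and in female controls the 95% interval ran from −1.44 to 1.20. Without *APOE*4 control 21 the estimate there was −0.76. *Aldh1l1* (chromosome 6 from 90550848 to 90599172) differed by −0.20 in exposed females (exact permutation p = 0.0571, limma adjusted p = 0.531) and by −0.083 to −0.028 elsewhere. *Sox9* (chromosome 11 from 112782210 to 112787758) had estimates of −0.17 to 0.073, none with an unadjusted limma p under 0.05.

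Markers of other cell types were read beside the allele comparison. In the fit of 48 mice none of the listed markers of neurons, oligodendrocytes, microglia and endothelial cells (7 each), of striatum (5 tested of 5), of choroid plexus and ependyma (1 tested of 5) or of meninges (2 tested of 5) passed at 5% FDR. Estimates were lower in *APOE*4 for 7 of 7 endothelial markers, with a median log2 difference of −0.16, and for 4 of 7 microglial markers, with a median of −0.17. They were higher for 5 of 5 striatal markers, with a median of 0.35. By sex and exposure, striatal estimates were higher in *APOE*4 for 5 of 5 in exposed females (median 0.62) and 5 of 5 in exposed males (0.36). In female controls 3 of 5 were higher (median 0.37) and in male controls 0 of 5 (−0.28). The summed level of the endothelial markers was 122 ± 14.1 CPM in *APOE*3 males and 98.5 ± 10.9 CPM in *APOE*4 males, and 48.1 ± 10.7 and 47.0 ± 10.8 CPM in females (mean ± SD, 8 mice each). In exposed males 7 of 7 endothelial markers were lower in *APOE*4 by estimate, with a median of −0.31, and 1 passed at 5% FDR, *Flt1*, a receptor of VEGF (−0.54, limma adjusted p = 0.033). In control males 7 of 7 were lower, with a median of −0.24. In exposed females 0 of 7 were higher (median −0.16), whereas in female controls 5 of 7 were higher in *APOE*4 (median 0.17). The summed level over both sexes of the microglial markers was 224 to 420.5 CPM in *APOE*3 and 222 to 475 CPM in *APOE*4 mice. That of the striatal markers was 101 to 511 and 120.0 to 744 CPM, and that of the choroid plexus and ependymal markers 17.1 to 1365 and 21.7 to 1154 CPM. The part of cell composition and dissection in the allele differences was not tested.

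None of the 10 genes passed the test for nPM. The comparison asked for a general response of the cortex to nPM, with DEGs taken at an unadjusted p under 0.005. In the 48-mouse fit 8 of the 10 estimates were below 0 and 2 above, the median log2 change was −0.12 against 0.0073 over all genes, and limma called 0 of the 10 beside 1.48% of all genes. An unadjusted p under 0.05 was reached by 2 of them, beside 14.4% of all genes, *S100b* (log2 difference −0.25, standard error 0.094, limma p = 0.00964 with n = 48 mice, limma adjusted p = 0.302) and *Gjb6* (log2 difference −0.24, standard error 0.099, limma p = 0.0184 with n = 48 mice, limma adjusted p = 0.306). Without *APOE*3 female controls 61 and 6 these estimates were −0.15 (limma adjusted p = 0.78) and −0.19 (limma adjusted p = 0.78). A fit with voom weights also gave 0 calls, and with the length slope as a covariate 1 of the 10 passed the unadjusted threshold, *S100b* (−0.15, limma p = 0.00299 with n = 48 mice). The 95% intervals of the 10 estimates lay between −0.62 and 0.33.

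In the 6 comparisons of one sex and genotype limma called 0 of the 10 genes at p under 0.005 in any of them. The shares of all genes called were 1.21%, 0.665% and 0.272% for B6, *APOE*3 and *APOE*4 females, and 0.24%, 0.154% and 0.178% for males of the same genotypes. Genes with an unadjusted p under 0.05 numbered 3 in *APOE*3 females, beside 21.1% of all genes, 1 in B6 females, beside 10.5%, and 0 in the other 4 comparisons. DESeq2 on recovered reads called 1, *Aqp4* in *APOE*3 females, where it called 2.83% of all genes, and 0 in the other 3 *APOE*-TR comparisons, and edgeR called 0 in all 4. In *APOE*-TR males the estimates were near 0, with all 95% intervals between −0.26 and 0.37 in *APOE*3 and between −0.36 and 0.25 in *APOE*4. In B6 males the intervals were wide, from −1.55 to 1.31.

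**Figure D3:**
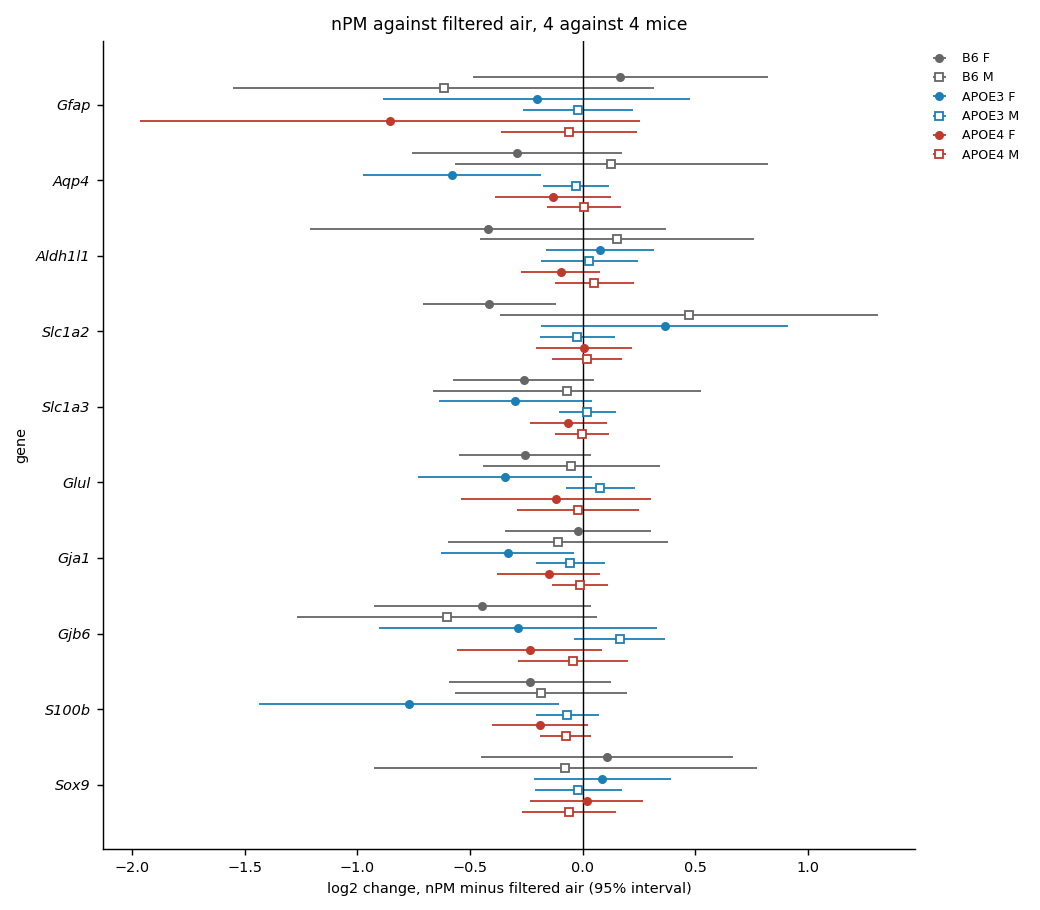
Log2 change with nPM for the 10 genes, with 95% intervals from limma, in B6 (grey), *APOE*3 (blue) and *APOE*4 (red) females (filled circles) and males (open squares), 4 against 4 mice each. Most intervals cross 0; those of *Aqp4*, *Gja1* and *S100b* in *APOE*3 females and of *Slc1a2* in B6 females do not, and the intervals of *APOE*-TR males are narrow.

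In *APOE*3 females the exposed mice had lower *Aqp4*. It was 128, 132, 165 and 198 CPM in controls and 81.5, 106, 106 and 119 CPM in exposed mice, so that the groups did not overlap (log2 difference −0.58, standard error 0.17, exact permutation p = 0.0286, limma adjusted p = 0.229). *S100b* was 175, 217, 332 and 411 CPM in controls and 122, 137, 163 and 224 CPM in exposed mice (log2 difference −0.77, standard error 0.29, exact permutation p = 0.0857, limma adjusted p = 0.229). *Gja1* was 202, 205, 229.8 and 241 CPM in controls and 149, 160.0, 180.3 and 211 CPM in exposed mice (log2 difference −0.33, standard error 0.13, exact permutation p = 0.0857, limma adjusted p = 0.229). For *S100b* and *Gja1* the groups overlapped, through exposed mouse 55. Without controls 61 and 6 the estimates were −0.34 for *Aqp4*, −0.31 for *S100b* and −0.23 for *Gja1*, with limma adjusted p = 0.905 for each. *Slc1a2* had the opposite sign, with 1316, 1882, 2347 and 2940.0 CPM in controls and 2343, 2439.9, 2755 and 2987 CPM in exposed mice (0.36, exact permutation p = 0.229), and its estimate without those controls was −0.0045. The length slope was −0.54 to −0.11 in the 4 controls and −0.22 to −0.0072 in the 4 exposed mice, and the mitochondrial share 12.5% to 21.8% and 7.67% to 14.9%. With the slope as a covariate the estimates were −0.34 for *Aqp4*, −0.13 for *S100b* and −0.0022 for *Slc1a2*. Markers of other cells differed by estimate too, none with p under 0.005. 6 of 7 microglial markers were lower in exposed mice, with a median log2 change of −0.61 and a summed level of 328 to 420.5 CPM in controls and 238 to 322 CPM in exposed mice. Lower estimates were also found for 6 of 7 oligodendrocyte markers (median −0.26), 5 of 7 neuronal (median −0.19), 5 of 5 of choroid plexus and ependyma (median −0.77) and 5 of 5 meningeal markers (median −0.66). Endothelial markers were higher for 4 of 7 (median 0.056), and striatal ones for 2 of 5 (median −0.10). Their part in the result was not tested.

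In B6 females *Slc1a2* and *Glul* were lower with nPM without overlap. The share of all genes without overlap was not counted, and 10.5% of all genes had an unadjusted limma p under 0.05 there. *Slc1a2* was 2263, 2344, 2427 and 2484 CPM in controls and 1627, 1713, 1731 and 2106 CPM in exposed mice (log2 difference −0.41, standard error 0.14, exact permutation p = 0.0286, limma adjusted p = 0.387). *Glul* was 1119.8, 1147, 1224 and 1490.5 CPM in controls and 961, 1020.0, 1048 and 1119.6 CPM in exposed mice (log2 difference −0.26, standard error 0.14, exact permutation p = 0.0286, limma adjusted p = 0.521). Both missed the call of p under 0.005, and each had the smallest p that this permutation test can give, 0.0286 (exact, two-sided). Without exposed mouse 51, the highest of its group, *Slc1a2* passed the unadjusted threshold, at −0.49 (limma adjusted p = 0.286). In B6 males the estimate for *Slc1a2* was 0.48 (exact permutation p = 0.4), with controls at 423, 568, 1204 and 1450.3 CPM and exposed mice at 735, 985, 1036 and 2087 CPM. The transporter *Slc1a3* had estimates of −0.26 in B6 females (exact permutation p = 0.114) and of −0.070 in B6 males. In B6 females 5 of 5 striatal markers were higher in exposed mice, with a median log2 change of 1.10 and a summed level of 46.1 to 484 CPM in controls and 187 to 765 CPM in exposed mice. Estimates were lower for 6 of 7 neuronal markers (median −0.16) and 5 of 7 oligodendrocyte markers (median −0.11), and higher for 5 of 7 microglial (median 0.041) and 3 of 7 endothelial markers (median −0.079). None passed at p under 0.005, and their part in the result was not tested.

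*Gfap*, the reactive marker, did not pass for nPM in any comparison. Exposed *APOE*4 females had 61.7, 64.8, 66.9 and 75.4 CPM and their controls 59.2, 71.4, 112 and 462 CPM, 1 of which, control 21, stood far above the rest (log2 difference −0.86, standard error 0.50, exact permutation p = 0.286, limma adjusted p = 0.754). Without 1 mouse at a time that estimate ran from −1.20 to −0.22, and the latter value was the one without control 21. *APOE*3 females had 91.4, 125, 161 and 166 CPM in controls and 76.6, 95.8, 122 and 193 CPM with nPM (−0.20, exact permutation p = 0.571). B6 mice differed by 0.17 in females and −0.62 in males, with exact permutation p = 0.686 and 0.4. The connexin gene *Gjb6* had negative estimates in 5 of the 6 comparisons, of which the lowest was −0.60 in B6 males (exact permutation p = 0.171) and the only positive one 0.16 in *APOE*3 males (exact permutation p = 0.2). *Aldh1l1* and *Sox9* had an exact permutation p of 0.286 or more in all 6 comparisons.

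The responses themselves were compared between sexes and alleles, as the design of the study allows. For the difference between sexes, averaged over genotypes, limma called 0 of the 10 genes and 1.98% of all genes at p under 0.005. The female response was below the male response in 9 of 10 genes, with the lowest p for *Aqp4* (log2 difference −0.37, standard error 0.18, limma p = 0.0448 with n = 48 mice, limma adjusted p = 0.36) and *S100b* (log2 difference −0.29, standard error 0.14, limma p = 0.0449 with n = 48 mice, limma adjusted p = 0.36). Without *APOE*3 female controls 61 and 6 these were −0.29 (limma adjusted p = 0.857) and −0.13 (limma adjusted p = 0.906), and 0.505% of all genes were called. For the difference between alleles it called 0 of the 10, beside 0.726% of all genes over both sexes, 3.76% in females and 0.0313% in males. In females the differences of *Aqp4* and *S100b*, *APOE*4 minus *APOE*3, were 0.45 (limma adjusted p = 0.129) and 0.58 (limma adjusted p = 0.138). These comparisons share their control mice with those above, *APOE*3 female controls 61 and 6 among them. Without these they were 0.21 (limma adjusted p = 0.815) and 0.12 (limma adjusted p = 0.927).

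Several of the genes differed between the sexes, and not in the same way in the B6 and the *APOE*-TR mice. In the 48-mouse fit *Aqp4* (0.49), *S100b* (0.38), *Sox9* (0.32) and *Slc1a3* (0.20) were higher in females at 5% FDR (limma adjusted p = 1.31e-04, 0.00169, 0.00657 and 0.0219), that is 4 of the 10 beside 36.7% of all genes. In *APOE*-TR mice alone 7 of the 10 passed beside 60.4% of all genes, and in B6 mice alone 2 of the 10, *Slc1a2* and *Aqp4*, did so beside 26.1%. The counts are near those shares. With controls 61 and 6 left out the number in the 48-mouse fit was 4 of the 10 beside 28.4% of all genes, *Aqp4*, *S100b*, *Sox9* and *Slc1a2*, with *Aqp4* at 0.44 and *S100b* at 0.28, while *Slc1a3* no longer passed.

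*Sox9* in *APOE*-TR mice ran from 14.9 to 24.3 CPM in the 16 females and from 10.6 to 16.1 CPM in the 16 males (log2 difference 0.47, limma adjusted p = 5.94e-08), and in B6 mice the difference was 0.027. *Slc1a2* had a lowest, median and highest value of 1627, 2184 and 2484 CPM in the 8 B6 females and of 423, 1011 and 2087 CPM in the 8 B6 males (log2 difference 1.12, limma adjusted p = 0.00246), against −0.100 in *APOE*-TR mice. *Aqp4* was higher in females of both tables, by 0.76 in B6 and 0.36 in *APOE*-TR mice. The difference between the tables, B6 minus *APOE*-TR, was itself tested after these values had been seen, and 3 of the 10 genes passed at 5% FDR beside 51.6% of all genes, a smaller share. They were *Slc1a2* (1.22, limma adjusted p = 4.18e-06), *S100b* (−0.74, adjusted p = 6.20e-05) and *Gfap* (−0.97, adjusted p = 0.02). In B6 mice alone *S100b* and *Gfap* were lower in females by estimate, at −0.12 and −0.28, against 0.62 and 0.69 in *APOE*-TR mice. With the length slope as a covariate the difference between the tables was 0.17 for *Slc1a2* (limma adjusted p = 0.58), 0.035 for *S100b* (adjusted p = 0.882) and −0.59 for *Gfap* (adjusted p = 0.406). In that fit 1 of the 10 genes passed, *Sox9* (−1.07, limma adjusted p = 0.00224), beside 33.3% of all genes. Without *APOE*3 female controls 61 and 6, 5 of the 10 passed beside 52.1% of all genes.

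Sex coincided with features of the libraries. Among *APOE*-TR mice depth did not overlap between the sexes, nor did the length slope, at −0.54 to 0.028 in females and 0.058 to 0.16 in males. Summed endothelial markers were 33.3 to 63.7 CPM in *APOE*-TR females and 80.8 to 135 CPM in *APOE*-TR males. In B6 mice the mean sum was higher in females, at 95.3 ± 15.3 CPM against 79.7 ± 8.90 CPM in males (8 mice each). At 5% FDR 6 of the 7 markers were lower in females in the 48-mouse fit, beside 36.7% of all genes. The sex difference, B6 minus *APOE*-TR, was positive and passed for 7 of 7 (median 1.81), beside 51.6% of all genes. Of 7 neuronal markers 3 were higher in females in the 48-mouse fit, a count near the share of all genes called there. Their summed level was 5707 ± 851 CPM in B6 females and 3363 ± 734 CPM in B6 males. In *APOE*-TR females and males it was 4932 ± 563 and 4803 ± 247 CPM. In B6 mice the slope was 0.0047 to 0.076 in females and −0.22 to 0.071 in males, and the 3 lowest *Slc1a2* values belonged to the 3 males of lowest slope. With the slope as a covariate among *APOE*-TR mice 2 of the 10 genes passed for sex, beside 37.2% of all genes. They were *Sox9*, at 0.58 (limma adjusted p = 4.60e-07), and *Slc1a2*, at 0.21 (adjusted p = 0.0241). *S100b* was then at 0.040 (adjusted p = 0.546). Sex and these features of the libraries cannot be told apart.

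**Figure D4:**
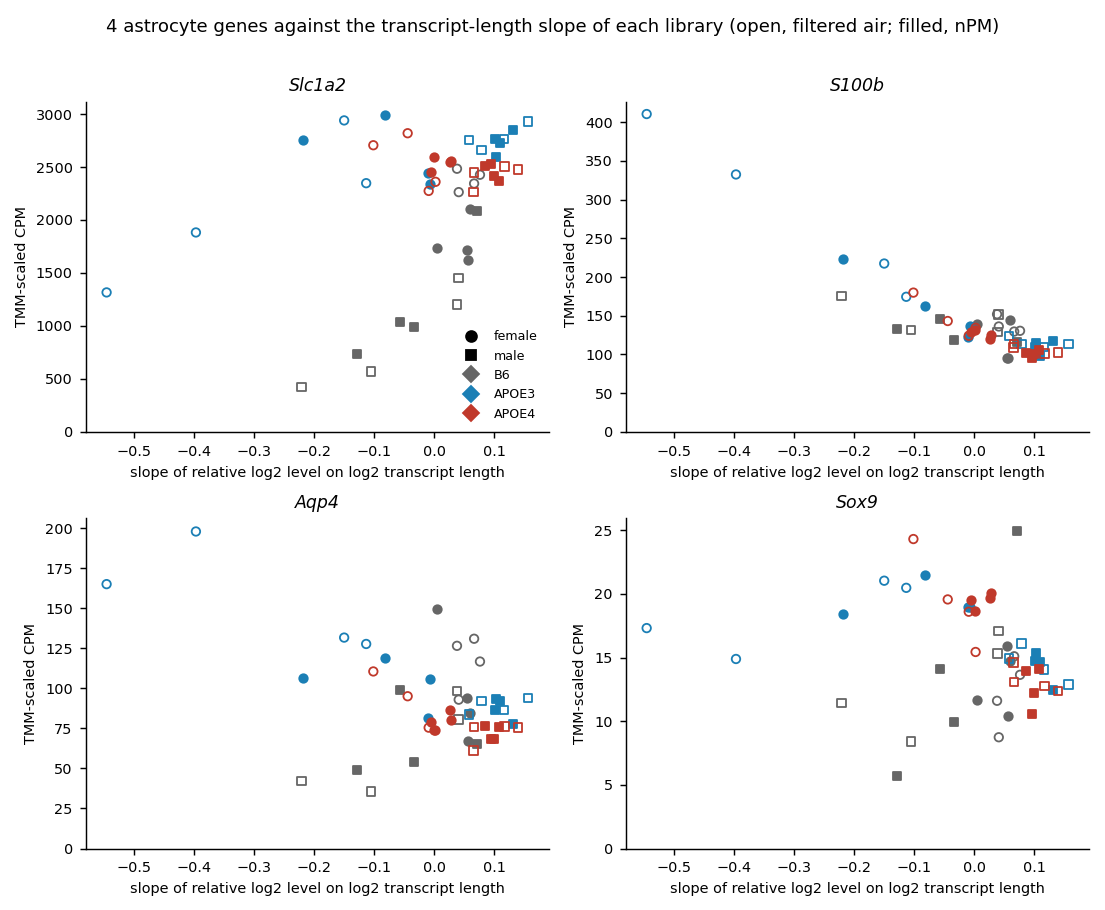
TMM-scaled CPM of *Slc1a2*, *S100b*, *Aqp4* and *Sox9* in each of the 48 mice (vertical, from 0) against the slope of relative log2 level on log2 transcript length of its library (horizontal, computed within each table), with circles for females, squares for males and colors for genotype. *APOE*3 female controls 61 and 6 lie at the far left with the highest *S100b* and the lowest *Slc1a2* of the *APOE*-TR mice, and among B6 mice the males of lowest slope have the lowest *Slc1a2*.

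Ratios within a library do not depend on scaling between mice, and 3 of them were compared in the 6 nPM and 4 allele comparisons. At an exact two-sided permutation p under 0.05, 2 of the 30 tests passed, and after Benjamini-Hochberg adjustment none did, the lowest adjusted p being 0.429. Both concerned the 2 glutamate transporters and the allele in controls. The ratio of *Slc1a2* to *Slc1a3* was 2.13, 2.64, 4.23 and 4.66 in *APOE*3 female controls and 4.99, 5.20, 5.37 and 5.54 in *APOE*4 female controls (log2 difference 0.70, exact p = 0.0286), with the lowest values in mice 61 and 6. Without these the log2 difference was 0.25 (exact p = 0.0667, the smallest that 2 against 4 mice allow). In control males it was 5.51, 5.77, 5.89 and 6.27 in *APOE*3 and 4.76, 5.01, 5.41 and 5.45 in *APOE*4 (log2 difference −0.18, exact p = 0.0286), so the 2 sexes had opposite signs. The ratio of *Gja1* to *Gjb6* ran from 2.65 to 4.93 in *APOE*-TR mice, and the ratio of *Gfap* to *Aldh1l1* was highest in *APOE*4 female control 21, at 15.2.

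**Figure D5:**
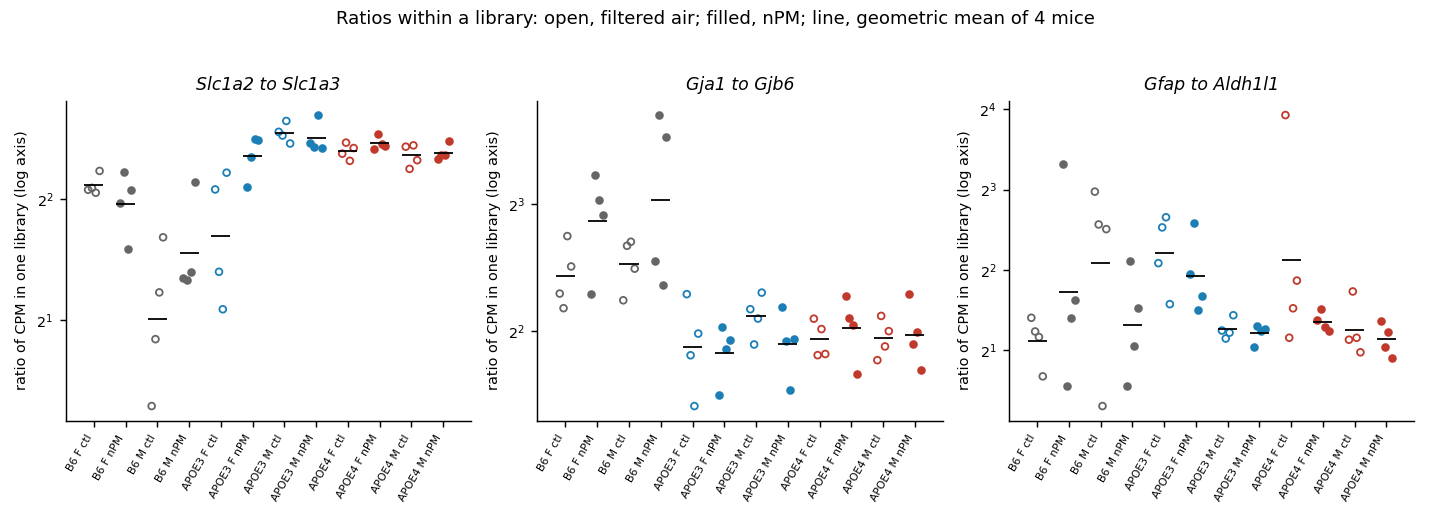
Ratio of the CPM of 2 genes in the same library (vertical, log axis) for *Slc1a2* to *Slc1a3*, *Gja1* to *Gjb6* and *Gfap* to *Aldh1l1* in the 12 groups, with open points for filtered air, filled points for nPM and a line for the geometric mean of 4 mice. The lowest values of the first ratio belong to B6 males, controls and exposed, and to *APOE*3 female controls 61 and 6, and the third is highest in 1 *APOE*4 female control.

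Across mice of one group, *Gfap* varied together with several of the other genes. Over the 32 *APOE*-TR mice, with the mean of each group removed, Pearson's r with *Gfap* was 0.66 for *Aqp4* (permutation p = 6.00e-05, adjusted p = 5.40e-04 over 9 relations, Spearman's rho 0.54, permutation p = 0.00164), 0.49 for *Gja1*, 0.46 for *Glul* and 0.43 for *S100b*, with adjusted permutation p = 0.0181, 0.0205 and 0.0488 for the last 3. These 3 had Spearman's rho of 0.50, 0.52 and 0.51, Pearson permutation p of 0.00403, 0.00683 and 0.0217 and Spearman permutation p of 0.00424, 0.00271 and 0.00306. For *Slc1a2* r was −0.092 (permutation p = 0.548; rho −0.16, permutation p = 0.373). The 2 mice farthest from the median of *Gfap* were *APOE*4 female controls 21 and 26. Without them r was 0.56 for *Aqp4*, 0.35 for *Gja1*, 0.28 for *Glul*, 0.39 for *S100b* and −0.12 for *Sox9*, whose r with them was 0.38 (permutation p = 0.0352; rho 0.11, permutation p = 0.548), so that the last relation rests on those mice. With controls 61 and 6 left out r was 0.67 for *Aqp4*, 0.45 for *Gja1*, 0.44 for *Glul* and 0.42 for *S100b* (30 mice). Within females r with *Aqp4* was 0.71 and within males 0.35, and with *Glul* 0.43 and 0.75 (16 mice each). All these values share library depth and scaling. The permutations exchanged mice across groups and sexes, although the pooled SD of *Gfap* was 0.76 in females and 0.23 in males. That of *Aqp4* was 0.24 and 0.11. Values with the group mean removed are also tied to each other within a group. The permutation p-values are therefore approximate and can be too small.

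Of all other genes tested, those whose residual levels were most like *Gfap* over these 32 mice were *Ly9* (0.89), *Capg* (0.88), *Clec7a* (0.87), *C3ar1* (0.85) and *Itgax* (0.84), with Pearson's r in parentheses as a description. *Clec7a*, *Itgax* and *C3ar1* are known as genes of activated microglia. *APOE*4 female control 21, the mouse with *Gfap* of 462 CPM, had 11.5 CPM of *Clec7a* against 0.0922 to 2.77 in the other 31 *APOE*-TR mice, and 4.57 CPM of *Itgax* against 0.0642 to 0.561. Without that mouse r with *Gfap* was 0.60 for *Clec7a* and 0.40 for *Itgax*, and the 5 genes most like *Gfap* were *Lefty1* (0.73), *Capg* (0.70), *Pdgfrl* (0.68), *Tex11* (0.67) and *Ninj2* (0.67), 1 of which, *Capg*, was among the first 5. *Slc1a2* was most like *Zfp106* (0.90), *Marf1* (0.90), *Ptpn11* (0.89), *Prickle2* (0.89) and *Gna13* (0.88), whose longest transcripts of 6160 to 9085 bases are longer than those of 86.8% to 96.4% of the genes tested. With *APOE*3 female controls 61 and 6 left out none of these 5 was among the most like, which were *Rab10* (0.86), *Zfp91* (0.84), *Trim37* (0.84), *Oxct1* (0.82) and *Rhot1* (0.81). *Aqp4* was most like *Cnn3* (0.80), *Oat* (0.79), *Adgre1* (0.79), *Pnp* (0.78) and *Srgn* (0.78), and without control 21 it was most like *Fgd4* (0.80), *Pdpn* (0.79), *Mpp5* (0.79), *Tmem47* (0.78) and *Ndufa12* (0.76), none of them among the first 5. The other exclusions changed the lists less. Without controls 61 and 6, 4 of the first 5 genes remained for *Gfap* and 3 for *Aqp4*. Without control 21, 4 of the first 5 remained for *Slc1a2*.

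Related genes were read from lists of 20 other astrocyte genes, 14 genes of glutamate and glutamine handling, 11 partners of the channels and connexins, 9 transcription factors of the glial lineage and 13 genes of reactive astrocytes. For nPM in the 48-mouse fit none of the 56 that could be tested passed. For the allele 1 of the 56 passed, beside 0.379% of all genes. It was *Serpina3n*, a serine protease inhibitor induced in reactive astrocytes, which was higher in *APOE*4 (log2 difference 2.38, standard error 0.22, limma adjusted p = 1.66e-11). Of the 6 reactive genes tested, *Serpina3n* among them, only 2 had higher estimates in *APOE*4, and their median log2 difference was −0.17. The 20 other astrocyte genes had a median log2 difference of −0.080, with 14 of 20 lower in *APOE*4, and the 14 glutamate genes of 0.033, with 6 of 14 lower. Taken by sex and exposure, *Serpina3n* passed at 5% FDR in control males (2.47, limma adjusted p = 5.09e-07) and exposed males (2.29, adjusted p = 1.27e-04). No reactive gene passed for the allele in female controls (12 tested) or in exposed females (10 tested). In the female comparison of the nPM response between alleles, in which 3.76% of all genes were called, and 1.04% without *APOE*3 female controls 61 and 6, 3 of 64 listed genes passed at p under 0.005. That count is near the share of all genes called with those controls. The 3 were *Grm3*, the metabotropic receptor mGluR3 (0.54, limma adjusted p = 0.07), and the reactive genes *S1pr3* and *Stat3*. The latter were at −0.73 and −0.61 (limma adjusted p = 0.126 for both). Of the markers of other cells *P2ry12*, a microglial receptor, passed as well, at 0.76 (limma adjusted p = 0.126). The estimates of these genes are given with *APOE*3 female controls 61 and 6 only. For sex, beside 36.7% of all genes, 3 of 8 lineage factors were higher in females at 5% FDR, *Sox2*, *Lhx2* and *Id4*, by 0.52, 0.35 and 0.28. This count is near that share. The summed level of the listed factors was 289 ± 19.1 and 231 ± 8.34 CPM in *APOE*-TR females and males. In B6 females and males it was 182 ± 35.4 and 175 ± 33.9 CPM. The sex calls of these lists pool B6 and *APOE*-TR mice and include *APOE*3 female controls 61 and 6. Of the 20 other astrocyte genes 1 was higher in females, *Gpr37l1* (0.31), and 3 were lower, with the smallest p for *Slc6a11*, a GABA transporter (−0.52), and *Atp1b2*, a sodium pump subunit (−0.57). Of the 14 glutamate genes 1 was higher, *Glud1*, which encodes glutamate dehydrogenase (0.36), of 8 partners of the channels and connexins 2 were lower, *Dag1* (−0.33) and *Tjp1* (−0.24), and of 6 reactive genes 2 were lower, *Serpina3n* (−0.55) and *Osmr* (−0.32).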

How the data were processed

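Cerebral cortex RNA was sequenced with a stranded mRNA kit. Per the study's methods and the submitters' processing notes, the authors aligned single-end reads to mm10 with TopHat2 2.0.8b and quantified RefSeq genes in Partek Flow, which gave the deposited CPM values, in a table of 27086 genes for 16 B6 mice and a table of 18943 genes for 32 *APOE*-TR mice. A gene without reads stands at the lowest value of its column. For *APOE*-TR mice, 94.4% of values up to 100 times that level were whole multiples of it (tolerance 0.05), and reads recovered from it served alternatives only.

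Groups were taken from the sample titles. A single column, *APOE*3 female control 6, was placed by the group in its name. No pair of mice had identical values.

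TMM factors from edgeR 4.0.16 rescaled the values, which were tested as log2(CPM + 0.5) with limma 3.58.1 in R 4.3.3, with Benjamini-Hochberg adjustment over all genes above the no-read level in every mouse of the fit. The plan allowed for counts, and limma was used because the values are CPM. A gene was called at an unadjusted p under 0.005 for nPM, as in the study, and at an adjusted p under 0.05 for allele and sex. The fits were tested on simulated data. Ratios were compared by exact permutation, and correlations by 100000 permutations. Lengths are the longest transcripts of the GENCODE annotation given for the mouse. The length slope of a library is the regression of each gene's log2 level, relative to the mean of its table, on log2 length.

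The members, lists and tests were chosen with earlier results of these data known. Genes outside the 10 were named by a rule, which took at most 3 genes of a list that passed, by p, and the 5 genes most correlated with *Gfap*, *Slc1a2* and *Aqp4*. Alternatives were other scalings, pseudocounts of 0.1 and 2, no filter or a mean of at least 1 CPM, voom weights, a length slope covariate, subsets of mice, a variance shared over 12 groups, edgeR, DESeq2 1.42.0 and leaving out single mice.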

Additional observations from a re-analysis of the deposited data

Results flagged for a closer look

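Of 120 sets of 4 mice, 10 genes in 12 groups, 4 held a mouse that stood far from the other 3 by Dixon's criterion. That is fewer than the 1 in 20 to which the criterion is set for independent normal values. The 10 genes were measured in the same mice and are not independent, so the count cannot be tested against that rate. *Gfap* was 462 CPM in *APOE*4 female control 21, against 112 CPM in the next mouse of its group. *Aqp4* was 61.2 CPM in *APOE*4 male control 91, against 75.7 CPM in the next. *Slc1a3* was 514 CPM in *APOE*4 male control 3, against 459.8 CPM in the next. *Gjb6* was 49.3 CPM in 1 exposed *APOE*4 female, number 39, against 33.9 CPM in the next.

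For 3 genes the difference between females and males was not the same in B6 and *APOE*-TR mice by a test of that difference (limma, 5% FDR, a contrast added after the values had been seen), which 51.6% of all genes passed as well. B6 minus *APOE*-TR, it was 1.22 for *Slc1a2*, −0.74 for *S100b* and −0.97 for *Gfap* on the log2 scale. With the length slope of the libraries as a covariate these were 0.17, 0.035 and −0.59, and none of the 3 passed. The 2 tables also differed in exposure time, age, depth and processing, which cannot be told apart from genotype.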

How the results depend on the processing

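Numbers of the 10 genes called are given first as reported and then under the alternative, with the share of all genes called in parentheses. For nPM over 48 mice the number was 0 (1.48%), and 1 with the length slope covariate (1.55%). For the allele over 48 mice it was 1 (0.379%). It was 4 in *APOE*-TR mice alone (5.94%) and 3 in these without *APOE*3 female controls 61 and 6 (4.50%). It was 0 with the length slope covariate (0.379%), in females alone (0.269%), in males alone (0.198%) and without controls 61 and 6 (0.307%). For sex it was 4 (36.7%), and 7 with no further scaling (36.8%). It was 7 in *APOE*-TR mice alone (60.4%), 2 in B6 mice alone (26.1%) and 2 in *APOE*-TR mice with the length slope covariate (37.2%). For nPM it was 0 in B6 females (1.21%) and 1 with a mean of at least 1 CPM (1.12%). In *APOE*3 females it was 0 (0.665%), and 1 with a shared variance (14.5%) and 1 with DESeq2 (2.83%). For the allele it was 0 in female controls (0.231%), and 4 with a shared variance (31.5%) and 4 with DESeq2 (26.03%). It was 0 in male controls (0.433%) and 1 with DESeq2 (0.836%), and 0 in exposed males (0.475%) and 3 with DESeq2 (1.24%). Leaving out 1 mouse at a time gave 0 to 1 for nPM in B6 females, 0 to 5 for the allele in female controls and 0 to 1 in exposed males. The highest of these counts stood beside 1.64%, 38.9% and 0.426% of all genes, in the same order. For the difference of the sex difference it was 3 (51.6%), and 5 with voom weights (50.9%), 5 without controls 61 and 6 (52.1%) and 1 with the length slope covariate (33.3%). The cause was not tested. The other 257 such counts stayed within 1.5 times the reported number.

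For the 10 genes, signs changed in 9 of 623 values of estimates that had an unadjusted p under 0.05 as reported, and in 147 of 2187 values of those that had not, among them *Slc1a2* with nPM in *APOE*3 females and *Gfap* for the allele in female controls. The 9 were as follows. In *APOE*-TR mice with the length slope covariate *Gjb6* was at 0.051 for nPM and at −0.17 for sex, *Slc1a3* at −0.095 and *Gja1* at −0.022 for sex. For sex *Slc1a2* was at −0.10 in *APOE*-TR mice alone and at −0.0024 there without controls 61 and 6, and in B6 mice alone *Gfap* was at −0.28 and *S100b* at −0.12. The difference of the sex difference of *S100b* was 0.035 with the length slope covariate.

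Over all genes, 164 DEGs for nPM in 48 mice became 37 without controls 61 and 6, and the female difference of the response between alleles went from 601 to 167 genes. For the allele 42 genes became 948 in *APOE*-TR mice alone, and in female controls 38 became 3487 with a shared variance, 4270 with DESeq2 and 341 without controls 61 and 6. No paired analysis was possible because the animal numbers name single mice and groups share fewer than 2 of them. Alternatives that leave out controls 61 and 6, and those that combine *APOE*-TR mice with the length slope covariate, were chosen after seeing the data. Groups of 4 limit the precision, and the precision of B6 values is limited further by the lower depth of some B6 libraries.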

Other observations

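*APOE*4 female control 21 was read for 13 genes of reactive astrocytes. It had the highest value of its group in 7 of them, *Vim*, *Cd44*, *Cxcl10*, *Stat3*, *Osmr*, *Aspg* and *Timp1*, and in 4 of the 10 astrocyte genes. *Serpina3n* was lowest in that mouse, at 19.4 CPM, below all 3 other controls, of which the highest had 89.1 CPM. These values come from 1 mouse that was singled out after its values were seen, and no test was made.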
